A study of Mus musculus with 6 samples.

Results

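Transcripts of 6 mouse genes of innate immune sensing, *Casp1*, *Casp4*, *Casp12*, *Ripk2*, *Ddx58* (also called *Rigi*) and *Samd9l*, were compared between UN-SCC679 and UN-SCC680, mouse cell lines grown from squamous tumors of the lung. The genes were found by Ensembl identifier among the 55359 rows of the deposited count table. They were kept because their rows lie in the 3 stretches of the genome where the positions of the table and of GRCm38 coincide, which hold 1227 rows and run from the start of chromosomes 4, 6 and 9 to the rows that begin at bases 58589764, 29487716 and 8994330. Both lines come from A/J mice whose lung tumors were induced by painting the skin with the carcinogen N-nitroso-tris-chloroethylurea (NTCU). Each line is derived from 1 tumor of its own mouse and was passed through immunodeficient Rag-/- IL2Rg-/- mice and then through A/J mice before the working line was set up. The labels name no treatment, stimulus or time point for either line, and polyA RNA was sequenced in 3 libraries per line. Separate cultures are not stated, so the p-values measure the spread between these libraries, which may be technical. Since each line stands for 1 tumor, a difference between the lines is not a difference between kinds of tumor.

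Caspase-1 is the protease that inflammasomes activate, and it matures interleukin-1β and interleukin-18 and opens gasdermin D pores in the cell membrane. *Casp4* encodes the mouse protein long known as caspase-11, which senses bacterial lipopolysaccharide in the cytosol, and *Casp12* encodes a relative that sits at the endoplasmic reticulum. The other members stand at different entry points. RIPK2 is the kinase that carries signals from the bacterial peptidoglycan sensors NOD1 and NOD2 to NF-κB, RIG-I (the product of *Ddx58*) is a helicase that detects viral RNA and signals to type I interferon genes, and SAMD9L is an interferon-inducible antiviral protein that restrains growth and translation.

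The DNA in front of the first exon is shown for the caspases and for *Ddx58*, because *Casp1*, *Casp12* and *Ddx58* carried the larger differences between the lines. RefSeq holds a promoter window (250 bases before to 50 after the gene's start, GRCm38.p6) for 5 of the 6 members, all but *Ripk2*. Sequences run 5′ to 3′ on the strand of the gene and are those of the C57BL/6J reference, not of A/J. Capitals mark matches on either strand to 3 motifs: GAANNGAAA, which resembles the interferon-stimulated response element, GGGANTTCC, which resembles the κB site of NF-κB, and TTCNNNGAA, which resembles the GAS element of STAT factors. The motifs were chosen after the sequences had been seen, and none of the matches overlaps another. The upstream stretches are *Casp1* at chr9:5298267-5298507, *Casp4* at chr9:5308599-5308827, *Casp12* at chr9:5345226-5345429 (all on the + strand) and *Ddx58* at chr4:40239829-40240075 (- strand).
Casp1: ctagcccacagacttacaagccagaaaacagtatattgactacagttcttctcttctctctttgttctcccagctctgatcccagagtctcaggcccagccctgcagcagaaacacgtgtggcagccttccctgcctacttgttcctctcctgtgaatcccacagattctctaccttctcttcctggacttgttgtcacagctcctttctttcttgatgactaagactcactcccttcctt
Casp4: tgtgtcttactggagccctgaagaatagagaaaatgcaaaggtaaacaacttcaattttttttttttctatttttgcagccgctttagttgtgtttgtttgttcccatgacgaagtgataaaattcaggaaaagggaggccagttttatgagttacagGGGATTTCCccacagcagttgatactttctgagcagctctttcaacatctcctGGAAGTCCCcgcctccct
Casp12: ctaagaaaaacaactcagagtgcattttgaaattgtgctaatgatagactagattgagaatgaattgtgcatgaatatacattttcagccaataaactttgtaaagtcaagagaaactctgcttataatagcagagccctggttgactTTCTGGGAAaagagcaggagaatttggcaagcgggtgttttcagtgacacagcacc
Ddx58: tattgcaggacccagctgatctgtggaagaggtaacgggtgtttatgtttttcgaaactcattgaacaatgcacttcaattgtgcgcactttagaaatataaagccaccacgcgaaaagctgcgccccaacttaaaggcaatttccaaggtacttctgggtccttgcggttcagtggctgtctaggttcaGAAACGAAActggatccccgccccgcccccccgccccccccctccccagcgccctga

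The response-element-like motif was found in the windows of *Ddx58* and *Samd9l*, starting at base -60 and at base 27 from the RefSeq start, and in 7.52% of 32851 promoter windows of the same length. A longer form, the same letters followed by CT, was searched first and shortened after its matches were seen. It was found in the same places of these 2 genes and in 0.527% of all windows. The stretches of 30 bases around these matches, at chr4:40239865-40239894 and chr6:3399525-3399554 (both on the - strand), are shown beside each other because the motif is common to both genes.
Ddx58: ctaggttcaGAAACGAAActggatccccgc
Samd9l: tctgtatcaGAATCGAAActggaaactgaa
The κB-like motif occurred 2 times in the *Casp4* window, at bases -92 and -39 from the start used here or -103 and -50 from a second RefSeq start. It occurred at least 1 time in 1.68% of all windows. The GAS-like motif occurred 2 times in the *Casp12* window, at bases -102 and -36, the latter inside the first exon of the table and so not printed. At least 1 match was found in 8.30% of all windows, and windows with 2 matches were not counted for either motif. The *Casp1* window held none of these letters. A match describes the reference sequence and is not a measurement of binding.

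The libraries held 3568293 to 4381885 counts, TMM factors lay between 0.986 and 1.01, and mitochondrial rows took 18.0% to 18.9% of each library. Counts at most other rows of the table cannot be read as expression of the named gene, because their positions are shifted against GRCm38. In the 3 stretches, 399 of the 594 rows that could be placed by symbol began or ended no more than 10 bases from the GRCm38 gene, as all 6 members did. The labelled squamous cell type could not be checked, since 0 of 5 squamous markers (*Trp63*, *Krt5*, *Krt14*, *Krt6a* and *Sox2*) have a row in these stretches. The lines were compared by the quasi-likelihood test of edgeR over all 8987 rows that passed its low-count filter, with Benjamini-Hochberg adjustment of p and the study's limit of 5e-05, and differences are given as the log2 of UN-SCC680 over UN-SCC679. Levels are normalized CPM (counts scaled to a common library size with TMM factors) unless another scale is named.

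All 6 members passed the low-count filter, and 4 of them differed between the lines. *Casp1*, *Casp12* and *Ddx58* fell in UN-SCC680 to between 0.323 and 0.478 of their UN-SCC679 level, and *Ripk2* rose 1.23-fold. *Casp4* and *Samd9l* did not pass the limit. Of all rows tested, 30.4% passed it (15.2% lower and 15.3% higher in UN-SCC680). Of the 365 tested rows in the 3 stretches, 55.6% did (18.6% lower and 37% higher). Most rows outside the stretches are shifted against GRCm38, so shares over all rows do not stand for named genes. The libraries of the lines did not overlap for any of the 6 members, as for 62.2% of all rows tested and 78.4% of the rows in the 3 stretches. The median log2 fold change (UN-SCC680 over UN-SCC679) was -0.70 over the members and 0.21 over the 365 rows. These medians cover unlike mixes of chromosomes. Chromosome 9 holds 3 of the 6 members but 22 of the 365 rows (median -0.81), and chromosome 4 holds 2 members and 254 rows (median 0.29).

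**Figure D1:**
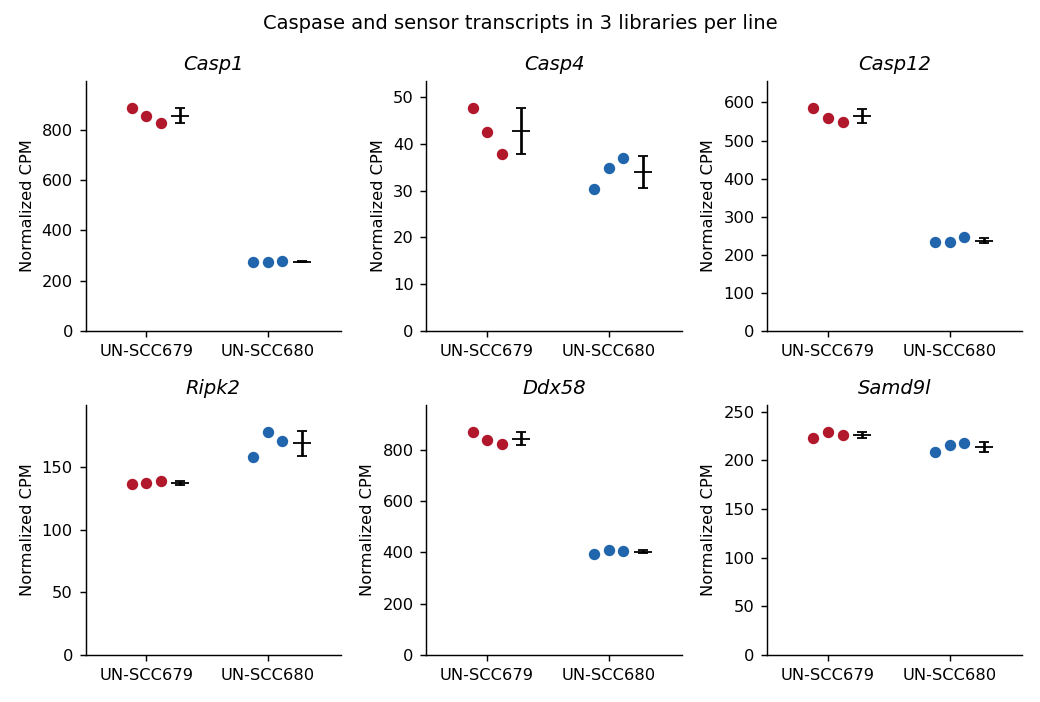
Normalized CPM (vertical axes, from 0) of the 6 members in each library, red for UN-SCC679, blue for UN-SCC680, and the mean ± SD (n = 3) in black beside the points. The UN-SCC680 libraries of *Casp1* lie between 274 and 279.7 CPM, below the UN-SCC679 libraries at 828 to 886.

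*Casp1* (ENSMUSG00000025888.7, chromosome 9, 5298508 to 5307290, + strand, 6 merged exons) was the most abundant member in UN-SCC679, with 886, 853 and 828 CPM in its libraries. The UN-SCC680 libraries had 274, 275 and 279.7 CPM. All UN-SCC680 libraries were thus well below all UN-SCC679 libraries and lay close together. The means of 855 ± 29.3 and 277 ± 2.79 CPM (SD, n = 3 each) differed 3.09-fold (95% interval 2.93 to 3.27), or -1.63 as log2 (SE 0.04, edgeR adjusted p = 3.89e-34). This was the largest difference among the members, and 42 of the 365 rows, *Casp1* included, had an absolute log2 fold change at least as large.

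*Casp12* (ENSMUSG00000025887.11, chromosome 9, 5345430 to 5373032, + strand, 11 merged exons) had 586, 559 and 549.9 CPM in the libraries of UN-SCC679. It had 234, 233 and 247 CPM in those of UN-SCC680. The lines were again separate, with means of 565 ± 18.7 and 238 ± 7.74 CPM (SD, n = 3 each). The level was 2.37-fold lower in UN-SCC680 (95% interval 2.24 to 2.52), or -1.25 as log2 (SE 0.04, edgeR adjusted p = 3.37e-28).

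*Casp4* (ENSMUSG00000033538.14, chromosome 9, 5308828 to 5336783, + strand, 9 merged exons) lies between the other two caspase genes and was far less abundant. Its UN-SCC679 libraries had 47.7, 42.5 and 37.8 CPM, from 136 to 188 raw counts. Its UN-SCC680 libraries had 30.3, 34.8 and 36.9 CPM. The lowest library of UN-SCC679 and the highest of UN-SCC680 nearly met. The means of 42.7 ± 4.91 and 34.0 ± 3.36 CPM (SD, n = 3 each) gave a log2 difference of -0.33 (95% interval -0.54 to -0.12, edgeR adjusted p = 0.00622), which did not pass 5e-05.

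The caspase genes are neighbors, with 1538 bases between *Casp1* and *Casp4*, 8647 between *Casp4* and *Casp12*, and 74525 from the start of the first to the end of the last. Ratios of raw counts within a library do not depend on the scaling between libraries. There were 1.51, 1.53 and 1.51 *Casp1* counts per *Casp12* count in the libraries of UN-SCC679, and 1.17, 1.18 and 1.13 in those of UN-SCC680. *Casp1* counts per *Casp4* count were 18.6, 20.0 and 21.9 in UN-SCC679 against 9.05, 7.92 and 7.58 in UN-SCC680. *Casp4* thus took 2.67% to 3.14% of the counts of the cluster in UN-SCC679 and 5.63% to 6.55% in UN-SCC680. Over all 15 pairs of members, the ratio did not overlap between the lines in 14, the exception being *Casp4* over *Samd9l*, and the same held for 73.3% of 62128 pairs formed from the 353 tested rows of the 3 stretches with counts in every library. An exact two-sided permutation test over the 6 libraries gave p = 0.1 for each of the 14 (0.107 after Benjamini-Hochberg adjustment over the 15), the smallest value that 3 libraries against 3 allow, and p = 0.2 for the other (0.2 adjusted). How reads that fit more than 1 of these related genes were counted is not stated.

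Lower counts in UN-SCC680 were common along this part of chromosome 9. Of its 22 tested rows, 15 were lower in UN-SCC680 (68.2%) and 3 higher (13.6%), with a median log2 fold change of -0.81. Without the 3 caspases, 13 of 19 rows were lower and the median was -0.80. Against the 22 rows, *Casp1* had the 3rd lowest and *Casp12* the 5th lowest log2 fold change, with log2 differences of -0.82 and -0.44 from the median, while *Casp4* lay 0.48 above it. The nearest tested rows were far off. On one side, at 319 kb, a row without a symbol (ENSMUSG00000110644) had a log2 difference of -0.15 (edgeR adjusted p = 0.00898), and on the other, at 1555 kb, *Dync2h1*, a motor subunit of cilia, was higher in UN-SCC680 with 0.32 (edgeR adjusted p = 9.22e-08). The study called copy number alterations of the lines from exome sequencing, but those data were not used here. The part of gene dosage in these values was not tested.

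**Figure D2:**
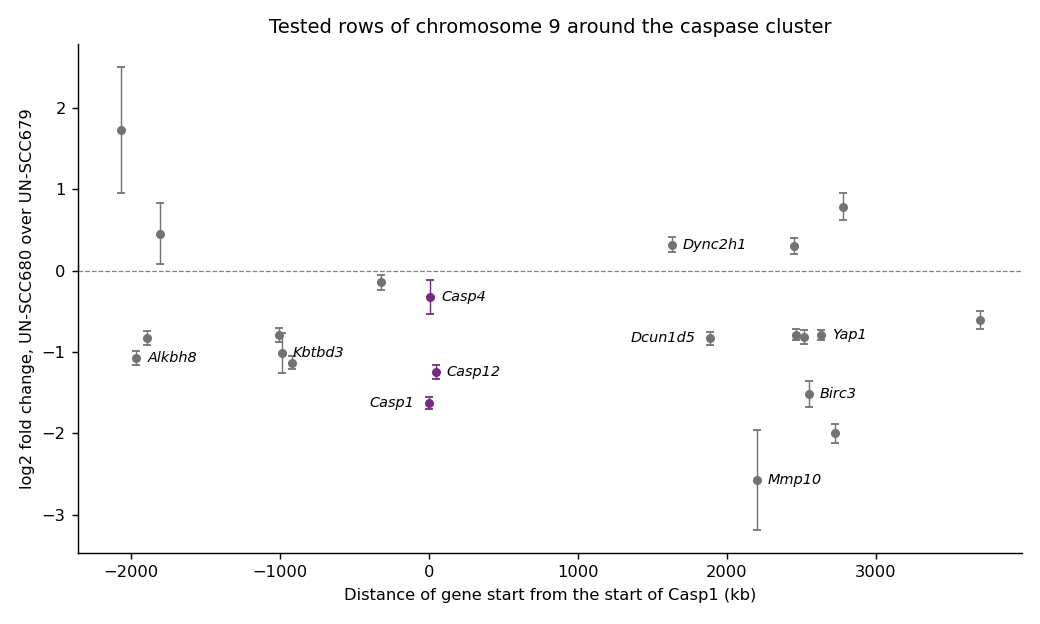
log2 fold change (UN-SCC680 over UN-SCC679, vertical axis, with 95% intervals) of the 22 tested rows of the chromosome 9 stretch against the distance of their start from the start of *Casp1* in kb, with the caspases in purple. Most points lie below 0, and *Casp1* and *Casp12* lie below the median of -0.81 whereas *Casp4* lies above it.

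*Ddx58* (ENSMUSG00000040296.16, chromosome 4, 40203773 to 40239828, - strand, 18 merged exons) was nearly as abundant as *Casp1* in UN-SCC679 when not corrected for length, with 871, 838 and 823 CPM. UN-SCC680 had 395, 407 and 407 CPM. The libraries of each line lay close together and the lines were well apart. The means of 844 ± 24.8 and 403 ± 6.70 CPM (SD, n = 3 each) differed 2.09-fold (95% interval 1.99 to 2.20), or -1.07 as log2 (SE 0.04, edgeR adjusted p = 8.17e-28). Here the direction went against the surroundings. In the stretch of chromosome 4, 42.9% of 254 tested rows were higher in UN-SCC680 and 11.4% lower, with a median log2 fold change of 0.29, and *Ddx58* had the 16th lowest value. Its flanking genes were *Aco1*, which encodes an iron-regulated aconitase and was higher in UN-SCC680 (log2 fold change 0.35, edgeR adjusted p = 2.68e-12), and *Topors*, which encodes a ubiquitin and SUMO ligase and had -0.11 (edgeR adjusted p = 0.00683).

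*Ripk2* (ENSMUSG00000041135.16, chromosome 4, 16122733 to 16163647, - strand, 12 merged exons) was the only member that was higher in UN-SCC680. Its libraries had 136, 137 and 139 CPM in UN-SCC679. They had 158, 178 and 170.4 CPM in UN-SCC680. The libraries did not overlap, although the spread in UN-SCC680 was wider, with means of 137 ± 1.56 and 169 ± 10.1 CPM (SD, n = 3 each). The log2 fold change of 0.30 (95% interval 0.18 to 0.41, edgeR adjusted p = 1.58e-05) lay 0.0085 above the median of its part of chromosome 4. Another row overlaps *Ripk2* and held 4 counts over all libraries. The call did not hold with DESeq2 (adjusted p = 0.000366), and 2 of the 6 fits that left out 1 library kept it. It was lost without UN-SCC679 replicate 2 or 3 and without UN-SCC680 replicate 2 or 3, with adjusted p-values from edgeR of 7.68e-05 to 0.000529.

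*Samd9l* (ENSMUSG00000047735.15, chromosome 6, 3372257 to 3399572, - strand, 3 merged exons) differed least. Its libraries had 223, 229.6 and 226 CPM in UN-SCC679. They had 208, 216 and 217 CPM in UN-SCC680. The libraries did not overlap, but the gap between the lines was small, with means of 226 ± 3.17 and 214 ± 4.96 CPM (SD, n = 3 each). The log2 fold change was -0.08 (95% interval -0.18 to 0.01, edgeR adjusted p = 0.133), so that the interval covers differences of up to 1.13-fold in favor of UN-SCC679. Per *Samd9l* count there were 3.90, 3.65 and 3.64 *Ddx58* counts in UN-SCC679 and 1.90, 1.89 and 1.87 in UN-SCC680. In the stretch of chromosome 6, 27% of 89 tested rows were lower in UN-SCC680 and 25.8% higher, with a median log2 difference of -0.02. Its flanking rows were one without a symbol (ENSMUSG00000106734, log2 fold change 0.12, edgeR adjusted p = 0.376) and *Ccdc132*, which was lower in UN-SCC680 (-0.49, edgeR adjusted p = 1.02e-13).

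**Figure D3:**
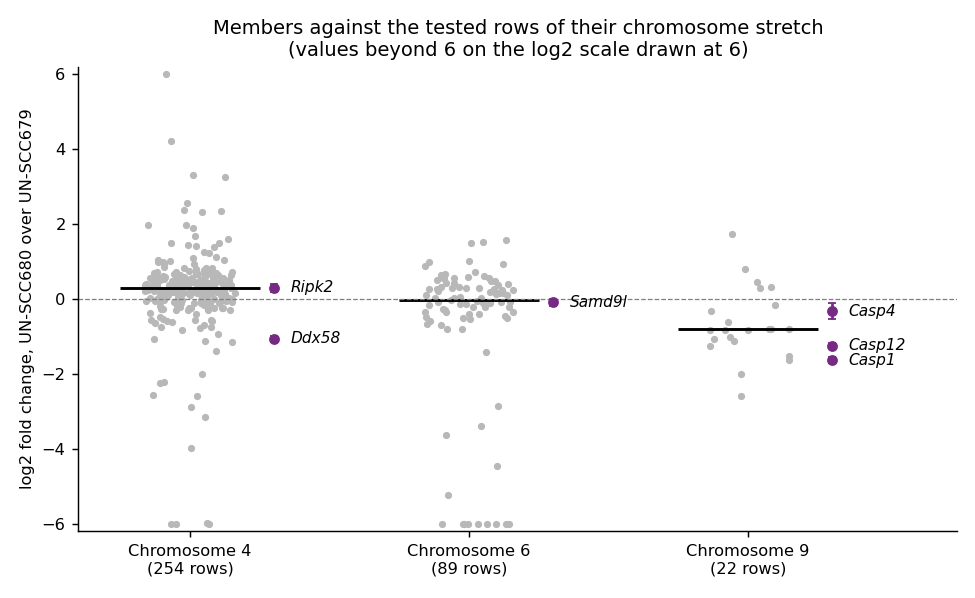
log2 fold change (UN-SCC680 over UN-SCC679, vertical axis) of every tested row in the 3 chromosome stretches (grey points) with their medians (black lines) and the members beside them in purple with 95% intervals. *Ripk2* sits at the chromosome 4 median of 0.29, and *Ddx58* sits well below it at -1.07.

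The scaling mattered for the members with small differences. When libraries were normalized on the rows of the 3 stretches alone, which brings the median of these rows to 0.00456 on the log2 scale, *Casp1*, *Casp12* and *Ddx58* still fell, with log2 fold changes of -1.84, -1.46 and -1.27. *Ripk2* then had 0.090 and did not pass (edgeR adjusted p = 0.173). *Casp4* (-0.54, edgeR adjusted p = 2.70e-05) and *Samd9l* (-0.29, edgeR adjusted p = 1.93e-06) passed as lower in UN-SCC680. The call for these 3 genes therefore depends on which rows the libraries are scaled to, and the sign of each was the same under every setting tried.

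**Figure D4:**
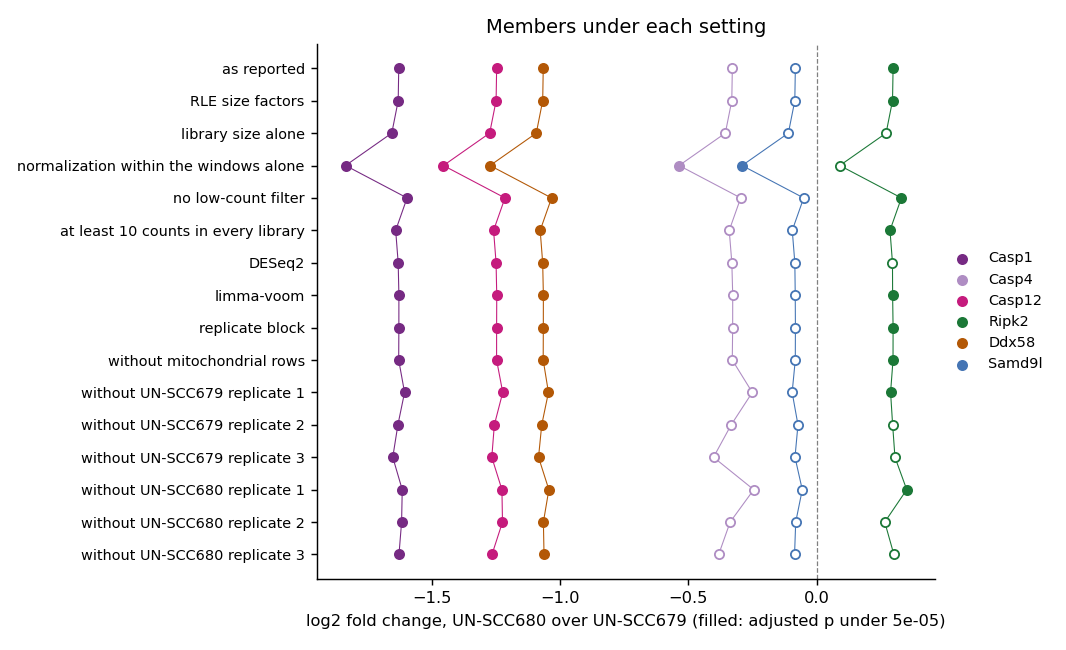
log2 fold change of each member (horizontal axis, UN-SCC680 over UN-SCC679) under each setting (vertical axis), with filled points for an adjusted p under 5e-05. *Casp1*, *Casp12* and *Ddx58* stay filled and below -1 throughout, whereas *Ripk2*, *Casp4* and *Samd9l* change between filled and open.

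Levels of different genes were compared as CPM per kilobase of exon, which uses the gene length of the table. In UN-SCC679 the order was *Casp1* (273 ± 9.34), *Casp12* (147 ± 4.88), *Ddx58* (119.7 ± 3.52), *Ripk2* (48.8 ± 0.556), *Samd9l* (41.7 ± 0.584) and *Casp4* (11.5 ± 1.32 CPM per kb, SD, n = 3 each), and neighbors in this order did not overlap. In UN-SCC680 the order was *Casp1* (88.2 ± 0.889), *Casp12* (61.9 ± 2.02), *Ripk2* (60.0 ± 3.59), *Ddx58* (57.2 ± 0.951), *Samd9l* (39.4 ± 0.913) and *Casp4* (9.16 ± 0.907 CPM per kb, SD, n = 3 each). There *Ripk2*, at 56.2 to 63.3 CPM per kb, overlapped both *Casp12* (60.7 to 64.3) and *Ddx58* (56.1 to 57.8), which did not overlap each other. Among the 365 rows, *Casp1* ranked 32nd per kilobase in UN-SCC679 and 123rd in UN-SCC680, and *Casp4* ranked 268th and 275th. The median row had 38.7 and 44.2 CPM per kb in the respective lines.

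**Figure D5:**
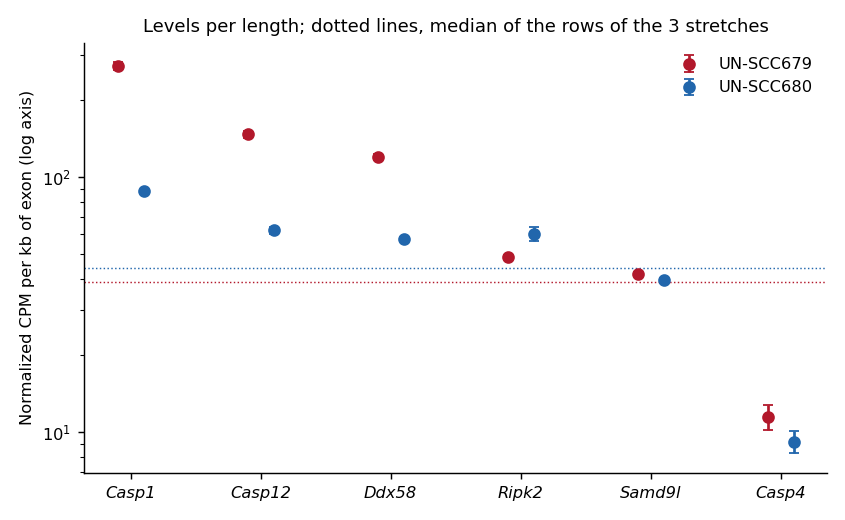
Level of each member per kilobase of exon (vertical log axis, normalized CPM per kb) by line, red for UN-SCC679 and blue for UN-SCC680, as mean ± SD over 3 libraries, with dotted lines at the median of the 365 rows (38.7 and 44.2). *Casp1*, *Casp12* and *Ddx58* have means of 119.7 to 273 in UN-SCC679 and 57.2 to 88.2 in UN-SCC680, and *Casp4* is lowest in both lines.

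Partners of these pathways were read only where they lie in the same stretches. Of 13 such genes listed, 11 have a row there and 6 were abundant enough to be tested. Of these 6, 3 were lower in UN-SCC680, 2 higher and 1 did not pass. The same limit was passed by 30.4% of all rows tested and 55.6% of the rows in the 3 stretches. The median log2 fold change of the 6 was -0.30. *Birc3* and *Birc2* encode the cIAP ubiquitin ligases that act on RIPK2 and other NF-κB intermediates. *Birc3* had 122 to 126 CPM in UN-SCC679 and 37.8 to 49.5 in UN-SCC680, or -1.52 as log2 (edgeR adjusted p = 2.87e-21), and *Birc2* fell from 412 ± 5.33 to 234 ± 4.87 CPM (SD, n = 3 each; log2 difference -0.82). Both lie on chromosome 9, where lower values prevailed. *Trim14*, an adaptor of the RIG-I pathway on chromosome 4, had 20.3, 13.1 and 15.0 CPM in UN-SCC679. It had 5.68, 7.14 and 9.17 CPM in UN-SCC680, or -1.12 as log2 (edgeR adjusted p = 2.99e-06) at 24 to 76 raw counts per library. This call was lost with DESeq2 (adjusted p = 0.00011), without UN-SCC679 replicate 1 (edgeR adjusted p = 0.000105) and without UN-SCC680 replicate 1 (edgeR adjusted p = 0.000185).

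*Map3k7*, which encodes the kinase TAK1 downstream of RIPK2, rose from 678 ± 10.9 to 987 ± 17.8 CPM (SD, n = 3 each), or 0.54 as log2 (edgeR adjusted p = 1.76e-18). *Casp8ap2*, which encodes a caspase-8 binding protein, was also higher, with a log2 fold change of 0.41. *Akirin2*, a nuclear cofactor of NF-κB targets, had 0.22 and just missed the limit (edgeR adjusted p = 0.000102). It passed without UN-SCC679 replicate 1 (edgeR adjusted p = 2.37e-05) and with no low-count filter (edgeR adjusted p = 1.26e-06). With normalization on the 3 stretches, *Akirin2* had 0.010 (edgeR adjusted p = 0.860). These 3 genes lie on chromosome 4, where higher values prevailed. Among the untested genes, *Ifnk*, an interferon gene, had 1 count in 1 of the 6 libraries, *Ccl19*, *Ccl27a* and the cytokine receptor gene *Cntfr* had 0 in each, and *Il11ra1* had 4 to 16 counts per library. At this depth a 0 means no detectable transcript, not its absence. The partners with which the members act most directly could not be read, since 0 of 29 canonical inflammasome, NOD and RIG-I-like receptor genes, among them *Nlrp3*, *Pycard*, *Gsdmd*, *Il1b*, *Nod1*, *Ifih1* and *Mavs*, have a row in the 3 stretches.

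For each member, the pattern over the 6 libraries was compared with 330 other genes of these stretches by Pearson's r of log2 CPM. With 2 lines, r is high for any gene whose lines are well apart, and the values are a description. *Met*, a growth factor receptor gene on chromosome 6, was nearest to *Casp1* (r = 0.9997) and *Ddx58* (r = 0.9993) and second to *Casp12* (r = 0.9990), to which *Cwf19l2* on chromosome 9 was nearest (r = 0.9997). *Peg10*, which had 0 counts in UN-SCC680, was second to both *Casp1* and *Ddx58*. The nearest to *Ripk2* were *2810488G03Rik* (0.991) and *Ccnc* (0.980), those to *Samd9l* were *Usp45* (0.956) and *Kbtbd3* (0.945), and those to *Casp4* were *6530409C15Rik* (0.963) and *Rad23b* (0.949).

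Caspase-1 and RIG-I are abundant in leukocytes, so markers of other cells were examined. Of 20 markers of squamous cells, leukocytes, lymphocytes and fibroblasts, 4 have a row in the stretches, and 0 of 6 macrophage and general leukocyte markers do. The lymphocyte markers were at or near 0, with 2 to 10 counts per library for *Cd72*, 1 count in all for *Pax5* and 0 for *Sit1*. Of 4 listed fibroblast markers, 1 has a row there, *Col1a2*, which encodes a chain of type I collagen. It was abundant in both lines and moved in the same direction as *Casp1*, *Casp12* and *Ddx58*. It had 26546 to 28858 CPM in UN-SCC679 and 2183 to 2362 in UN-SCC680, 12.4-fold lower. The study describes the cells of both lines as fusiform and reports that squamous traits were lost as passages increased. Whether tumor cells or fibroblasts carried *Col1a2* was not tested. The part of other cells in the differences of the members was not tested, and in bulk libraries fewer cells of a type and less RNA per cell cannot be told apart.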

How the data were processed

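PolyA RNA of UN-SCC679 and UN-SCC680 (3 libraries each) had been sequenced from a stranded library kit as paired-end reads. The authors deposited 1 table of raw read counts per gene, in the layout of featureCounts, which the submitters' processing notes name together with mm10. The methods of the study instead describe Trimmomatic 0.36 trimming and Kallisto pseudoalignment to mm10, and the strand setting and treatment of multi-mapped reads are not given in the sources used here. Groups were taken from the sample labels. Counts were analysed as deposited in R 4.3.3 with edgeR 4.0.16: TMM normalization over all rows, the filterByExpr low-count filter, a quasi-likelihood F test of the 2 lines with Benjamini-Hochberg adjustment over 8987 rows, and a limit of 5e-05. Libraries held 3568293 to 4381885 counts, and intervals are 95% intervals of the fitted difference. Replicates differed by somewhat more than sampling noise, so none was merged. Chi-square per degree of freedom between replicates of a line was 1.11 to 1.63, where sampling alone gives about 1. The fitted spread beyond sampling was small, with a common coefficient of variation of 3.12%. Symbols were assigned by Ensembl identifier (31021 rows matched), and promoter windows came from RefSeq (GRCm38.p6). The rule for naming genes was the 6 members, the listed pathway and marker genes, the flanking tested rows and the nearest 2 genes by correlation. The members and lists were chosen with earlier results of these data known. Alternatives were another normalization, filter, tool (DESeq2 1.42.0, limma-voom 3.58.1), threshold or replicate block, and leaving out each library. On simulated counts, the fit called 163 of 200 changed rows at the limit of 5e-05 and 0 of the other rows.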

Additional observations from a re-analysis of the deposited data

How the results depend on the processing

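Each member was refitted under 15 alternatives, and all kept their direction. *Casp1* (log2 -1.84 to -1.60), *Casp12* (-1.46 to -1.22) and *Ddx58* (-1.27 to -1.03) passed 5e-05 in all 15. *Ripk2* did not pass with library size alone (0.27), with DESeq2 (0.30) or with normalization on the 3 stretches (0.090), and ranged from 0.27 to 0.35 when 1 library was left out. Normalization on the stretches, which moved the median of all rows to -0.21, brought *Casp4* (-0.54) and *Samd9l* (-0.29) past the limit. With 1 library left out, 3 to 4 members, 4 to 5 listed genes and 172 to 202 rows of the stretches passed, against 4, 5 and 203 with all libraries. Over the whole table, 2225 to 2611 of 9225 to 9310 tested rows passed in these fits, against 2736 of 8987 with all libraries. Requiring also an absolute log2 difference over 1 left 3 of 6 members, 2 of 6 listed genes and 64 of 365 rows of the stretches. A limit of 2 left 0 members, 0 listed genes and 35 rows. The share of all rows tested was not counted at these limits. Ranking by CPM without the length kept the place of 2 of 6 members in UN-SCC679 and 1 of 6 in UN-SCC680. Same-numbered libraries showed no shared shift, since their deviations correlated at -0.04 to -0.00052. Whether they were prepared together is not stated, and these correlations cannot tell. A fit with the replicate block called 2528 rows instead of 2736 and changed no member's call (*Ripk2* 0.30, edgeR adjusted p = 4.89e-05). DESeq2 called 2059 rows. Leaving out the mitochondrial rows, an alternative chosen after seeing the data, changed no member's call. Depth limits *Casp4*, with 128 to 188 counts per library, more than the other members.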
